A study of Mus musculus with 2 samples.

Results

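Translation initiation and elongation factors were taken as all gene symbols in both expression tables whose names begin with Eif1 to Eif6, Eef1 or Eef2 and whose mean level over the libraries was 1 FPKM or more. FPKM counts fragments per kilobase of transcript and per unit of library depth, so levels of different genes can be set side by side. Of 24346 symbols, 64 matched the name pattern and 61 of these passed the level threshold. The 3 symbols that did not pass were Eef1a2 and Eif4e1b, both listed at 0 in both libraries, and Eif3j1, at 0.152 and 0.160 FPKM. Just inside the threshold were Eif2ak2, with a mean of 1.66 FPKM, and Eif5a2, with a mean of 1.91 FPKM. The RNA was that of splenic CD4+ T cells, sorted at day 14. One library was from HFD-MI mice given probucol, an antioxidant drug that lowers cholesterol, and 1 from HFD-MI mice without treatment. Both tables carry the word HypoE in their headers, which the labels do not explain, and genotype, age and number of animals are not given in the labels. As each group has a single library, no replicate spread and no p-value can be given, and every difference given here is a difference between these 2 libraries.

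Translation starts when initiation factors bring the initiator tRNA, the mRNA cap and the small ribosomal subunit together, scan to a start codon and admit the large subunit. Elongation factors then deliver each aminoacyl tRNA (eEF1A, recharged by the eEF1B subunits) and move the ribosome by one codon (eEF2). In T cells the supply and phosphorylation of these factors are known to limit how fast protein synthesis climbs after activation. Many mRNAs of the translation machinery, among them those of eEF1A and eEF2, begin with a run of pyrimidines (the terminal oligopyrimidine tract, which the protein LARP1 binds) through which mTOR adjusts their translation.

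Start site windows are shown for 6 members, because the tract is the regulatory sequence for which this gene group is best known. They are examples, shown after the values were seen, and their directions do not stand for all members. Of those with a tract only Eif2s3y was higher with probucol, but Eif3l, Eif4enif1 and Eef1e1, not shown, also have one and were higher. Eif5, shown without a tract, was higher, but Eif2b4 and Eif1ax, not shown, also lack one and were lower. Counts over all members with a start site follow the windows. Each window runs from 5 bases before to 25 bases after the RefSeq start site (GRCm38.p6, the assembly of mm10), 5′ to 3′ on the transcribed strand. Capitals mark a tract, here a C followed by at least 6 letters that are C or T.
Eef1a1, chr9:78481700-78481729, minus strand: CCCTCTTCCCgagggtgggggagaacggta
Eef2, chr10:81176626-81176655, plus strand: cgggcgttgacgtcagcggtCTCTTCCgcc
Eif3f, chr7:108934410-108934439, plus strand: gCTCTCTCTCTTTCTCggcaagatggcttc
Eif2s3x, chrX:94212627-94212656, minus strand: ttttCCTTTTCTCTCCgagcaagatggctg
Eif2s3y, chrY:1010590-1010619, plus strand: cagccaCTTCCTTCTTTCgtgagcaagatg
Eif5, chr12:111538096-111538125, plus strand: tgcatgcgagccaatgacaagagaagttgg

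Such a tract was in the window of 13 of the 48 members (27.1%) that had a RefSeq start site, against 1192 of 8132 genes (14.7%) at a mean of 1 FPKM or more. Over all 32851 start windows 12.3% held one on the transcribed strand and 15.8% on the other strand, so the letters alone are common. Annotated starts can lie some bases from the start used in a cell. For Eef2 the tract begins at base 16 after the annotated start. For others it begins before that start, at base -5 for Eef1a1, -4 for Eif3f and Eif2b5, and -1 for Eif2s3x. Letters before the start would not be in an mRNA that begins there. Read from the annotated start on, the marked letters of Eef1a1 and Eif2b5 are too few to meet the definition, though both count among the 13. Whether the marked letters are the tract that opens the mRNA was not tested. Of the 13 members with a tract 9 were lower with probucol and 4 higher, with a median log2 ratio of -0.12, while the 35 members without one had a median of 0.03. Over all genes at a mean of 1 FPKM or more the medians were 0.03 with a tract and 0.02 without. Of those with a tract 638 were higher and 554 lower. With ribosomal protein symbols left out, 635 were higher and 526 lower, so most ribosomal protein genes with a tract were lower. The tract was looked for after the values were seen, and these medians are a description.

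Estimated depth was 9.68e+06 fragments in genes in each library, but fewer symbols were above 0 FPKM with probucol, 14289 against 16876 untreated. The part of that difference in detection in the ratios was not tested. T cell genes were abundant in both: Cd3e, of the CD3 complex, stood at 478 FPKM in the probucol library and 494 FPKM in the untreated one, and Cd4 at 334 and 284 FPKM. All 7 of the 10 listed T cell genes that were found were above the threshold. Markers of other cells moved between the libraries. The 10 listed B cell genes summed to 63.6 FPKM with probucol and 22.8 untreated, with Cd79a, a B cell receptor chain, at 20.7 and 8.48 FPKM, all 6 that passed the threshold at least 2-fold higher, and Pax5 listed at 0 in both. The 9 erythroid genes found summed to 359 FPKM with probucol and 1179 untreated, and all were lower, Hba-a1 among them at 55.3 and 158 FPKM. The 10 macrophage genes summed to 190.3 FPKM with probucol and 180.0 untreated, of which Lyz2 alone was at 125 and 132 FPKM. Of the 9 that passed the threshold 7 were higher and 2 lower, with a median log2 ratio of 0.30. Csf1r among them was at 3.75 and 1.85 FPKM. Of the CD8 genes Cd8a was at 0.139 and 0.276 FPKM and Cd8b1 at 15.9 and 19.6 FPKM. The part of such cells in the values of the translation factors was not tested, and fewer cells of a type cannot be told apart from less RNA per cell.

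Log2 ratios in the text are on the log2(FPKM + 1) scale, and folds and ratios with an interval are of plain FPKM. As a group the factors were abundant and close between the libraries. Their FPKM values summed to 11416 with probucol and 12076 untreated, 1.53% and 1.59% of all FPKM. None of the 61 was past 2-fold in either direction on the log2(FPKM + 1) scale, where 1.62% of all 10663 genes at a mean of 1 FPKM or more were at least 2-fold higher and 1.98% at least 2-fold lower. At a smaller threshold, a log2 ratio of at least 0.32 in size, 4 members were higher (6.56%), against 17.8% of all genes, and also 4 lower (6.56%), against 14.1% of all genes. The higher ones were Eif5, Eif5b, Eif4ebp2 and Eif5a2, and the lower ones Eif2b4, Eif1ax, Eef2 and Eef2k. The median size of the log2 ratio, whatever its sign, was 0.13 for the members and 0.21 for all genes. Since ratios scatter less in abundant genes, the same was read at a mean of 10 FPKM or more. There 3 of 55 members (5.45%) were higher and 3 (5.45%) lower by at least 0.32, against 12.2% and 9.83% of 6397 genes. Members were still the more abundant there, with a median level of 76.6 FPKM against 33.1 FPKM. At a mean of 100 FPKM or more the sets lay closer. Of 27 members 3.70% were higher and 7.41% lower by at least 0.32, against 7.46% and 8.05% of 1180 genes. The median size of the log2 ratio was 0.12 for those members and 0.14 for those genes.

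**Figure D1:**
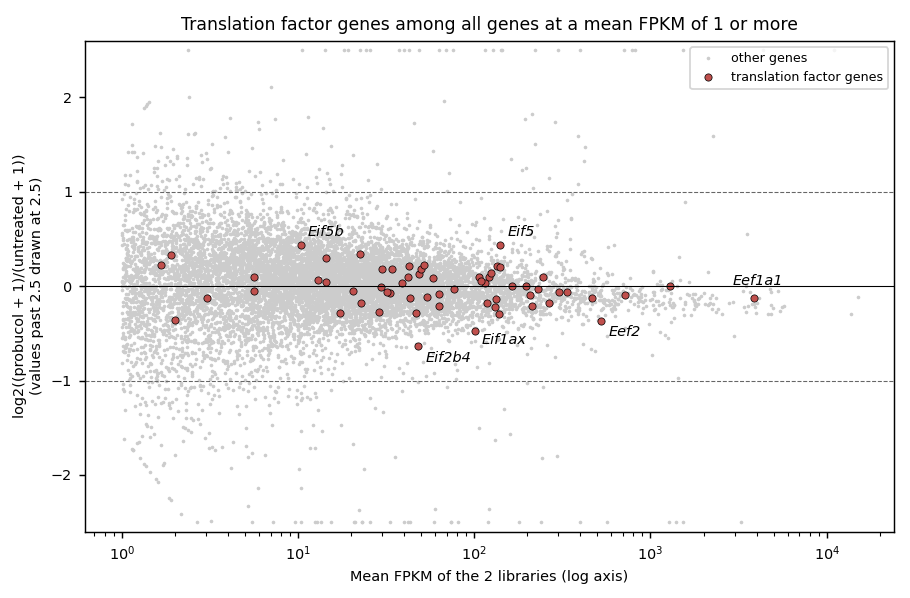
Mean FPKM of the libraries (horizontal, log axis) against the log2 ratio of probucol over untreated on FPKM + 1 (vertical) for 10663 genes in grey and the 61 translation factor genes in red. The dashed lines mark 2-fold, and all red points lie between them, from Eif2b4 at -0.64 to Eif5 at 0.44.

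Slightly more members were lower than higher. Of the 61, 26 were higher (42.6%) and 35 lower (57.4%), with a median log2 ratio of -0.03, while 52.7% of all genes were higher and 47.3% lower, with a median of 0.02. The lean went with abundance. Of the 27 members at a mean of 100 FPKM or more 18 (66.7%) were lower, and so were 65.3% of all 1180 genes at that level, with medians of -0.06 and -0.07. The threshold of 100 FPKM was chosen after the values were seen. Counting error alone was small for most members: the 95% counting interval of the ratio lay above 1 for 17 members (27.9%), below 1 for 19 (31.1%) and across 1 for 25. Over all genes 28.3% and 23.6% lay above and below 1, and at a mean of 100 FPKM or more 20.9% and 47.1%. An interval away from 1 therefore marks a difference beyond the sampling of fragments at the deposited scaling, with PCR copies counted as fragments. It does not mark one beyond the spread between animals, which was not measured. Intervals were not recomputed under other scalings, and some bounds, such as the lower bound of 1.005 for Eif3d, lie close to 1.

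**Figure D2:**
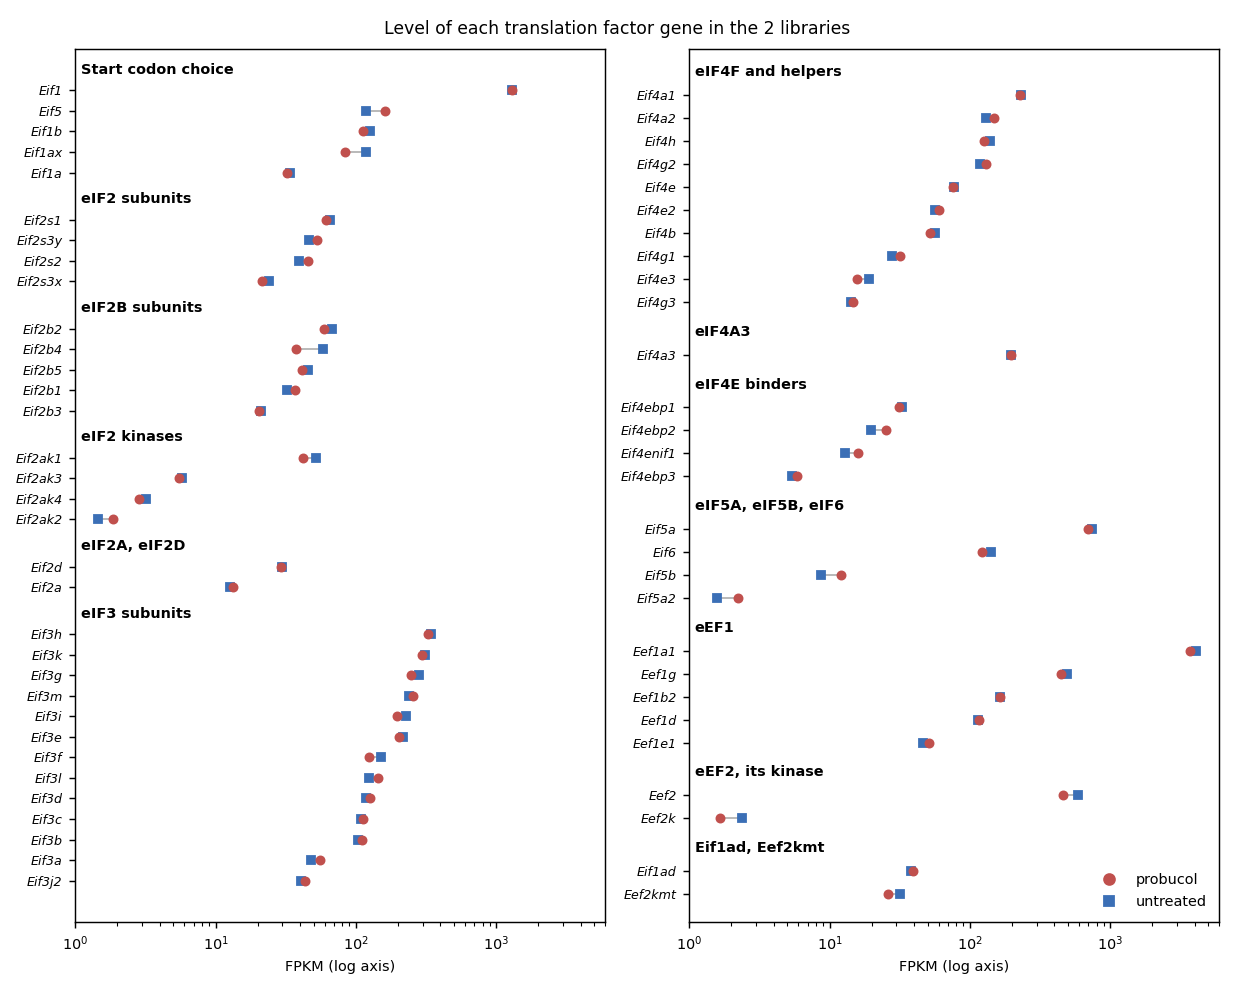
FPKM (horizontal, log axis) of each of the 61 genes with probucol (red circles) and untreated (blue squares), arranged by role and, within a role, by mean level. Levels run from Eif2ak2 at 1.87 and 1.45 FPKM to Eef1a1 at 3725 and 4058 FPKM, and the distance between the symbols of 1 gene is small beside the distance between genes.

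Factors that choose the start codon held a gene at 0.44 and one at -0.48 on the log2(FPKM + 1) scale, side by side in a group whose summed level was nearly equal, at 1685 FPKM with probucol and 1695 untreated. Eif1, whose product keeps the scanning ribosome from accepting wrong start codons, stood at 1296 FPKM in the probucol library and 1299 FPKM in the untreated one, and was at a ratio of 0.998 (0.975 to 1.02). Eif5 (chromosome 12, 111538016 to 111546752), which encodes the GTPase activator that triggers release of eIF2 once the start codon is found, was at 161 FPKM in the probucol library and 119 FPKM in the untreated one. That made it 1.36-fold higher with probucol (95% counting interval 1.30 to 1.41). On log2(FPKM + 1) this was the highest of the members, while in plain FPKM the scarcer Eif5b and Eif5a2 had larger folds. Eif1ax (chromosome X, 159372178 to 159389928), the X-linked gene of eIF1A, which helps the initiator tRNA and the scanning complex bind, was at 83.9 FPKM in the probucol library and 117 FPKM in the untreated one and 1.40-fold lower (1.34 to 1.45). Its autosomal relative Eif1a was at 32.4 and 34.2 FPKM, at a ratio of 0.948 (0.844 to 1.07), so that the share of Eif1a in the sum of the pair was 27.8% with probucol and 22.6% untreated. Eif1b, a close relative of Eif1, was at 112 and 126 FPKM and 1.13-fold lower (1.03 to 1.24). The ratios of Eif5 and Eif1ax rest on 5361 and 3970 and on 4156 and 5828 estimated fragments, and their levels lay further apart than those of the other 3 genes of the group.

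The subunits of eIF2, the GTP-binding complex that carries the initiator tRNA, stood between 22.7 and 63.5 FPKM in mean level and did not share a direction. Eif2s1, which encodes the alpha subunit phosphorylated under stress, was at 61.6 FPKM in the probucol library and 65.5 FPKM in the untreated one, at a ratio of 0.941 (0.884 to 1.001). Eif2s2, the beta subunit, was at 45.8 and 39.3 FPKM and 1.17-fold higher (1.06 to 1.28). The gamma subunit is encoded by an X-linked and a Y-linked gene. Eif2s3y was the more abundant, at 52.98 and 46.4 FPKM, 1.14-fold higher (1.03 to 1.26), and Eif2s3x was at 21.3 and 24.2 FPKM, 1.14-fold lower (1.003 to 1.29). The Y copy made up 71.4% with probucol and 65.7% untreated of the pair, and the sum of the pair was 74.3 and 70.7 FPKM. As the windows printed above show, both copies have a pyrimidine tract of 12 letters near their start, and their ratios lay on opposite sides of 1. Of the 50-base stretches of Eif2s3x, 35.4% also stand in transcripts of other annotated genes, and of those of Eif2s2 27.3%. Part of the fragments of both could therefore have been assigned elsewhere.

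Of eIF2B, the complex that reloads eIF2 with GTP, 4 of 5 subunit genes were lower with probucol, and 1 lay apart from the others. Eif2b4 (chromosome 5, 31187558 to 31193430), the delta subunit, was at 37.4 FPKM in the probucol library and 58.8 FPKM in the untreated one. It was 1.57-fold lower with probucol (95% counting interval 1.42 to 1.74), the lowest log2 ratio of all members, on 639 and 1008 estimated fragments. Its level was the second of the 5 untreated and the third with probucol. Eif2b2, the beta subunit, was at 58.8 and 68.1 FPKM and 1.16-fold lower (1.05 to 1.27). The catalytic epsilon subunit Eif2b5 was at 41.6 and 45.4 FPKM, at a ratio of 0.918 (0.841 to 1.003), and Eif2b3, the gamma subunit that works with it, at 20.3 and 21.04 FPKM, at a ratio of 0.965 (0.814 to 1.14). Eif2b1, the alpha subunit, went the other way, at 36.6 and 32.1 FPKM and 1.14-fold higher (1.02 to 1.28). The 5 genes summed to 195 FPKM with probucol and 225 untreated. In the annotation 8.53% of the exonic bases of Eif2b4 overlap exons of Snx17 on the opposite strand, and reads of overlapping genes cannot be told apart without strand.

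The kinases that phosphorylate eIF2 alpha and so slow initiation were unequal in level. Eif2ak1, the heme-regulated kinase HRI, was by far the most abundant of the 4, at 42.2 FPKM in the probucol library and 51.6 FPKM in the untreated one, and was 1.22-fold lower (1.15 to 1.31). It is best known from red cell precursors, and the summed erythroid markers were at 359 and 1179 FPKM in the same libraries, in the same direction. The part of erythroid RNA in Eif2ak1 was not tested. In the annotation 11.3% of its exonic bases overlap Aimp2 on the opposite strand. Eif2ak3, the kinase PERK of the endoplasmic reticulum, was at 5.52 and 5.77 FPKM, Eif2ak4, the amino acid sensor GCN2, at 2.85 and 3.21 FPKM, and Eif2ak2, the interferon-inducible kinase PKR, at 1.87 and 1.45 FPKM. Their intervals all span 1, with ratios of 0.956 (0.751 to 1.21), 0.888 (0.701 to 1.13) and 1.29 (0.907 to 1.84), on between 60 and 151 estimated fragments a library. At this depth a difference within these intervals could not be told from counting error. The genes that deliver tRNA to ribosomes apart from eIF2 were close: Eif2d was at 29.4 and 29.7 FPKM and Eif2a at 13.3 and 12.7 FPKM, with ratios of 0.991 (0.880 to 1.11) and 1.05 (0.884 to 1.246).

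The 13 subunit genes of eIF3, the scaffold that binds the small ribosomal subunit and recruits mRNA, spanned 7.93-fold in mean level and none was past a log2 ratio of 0.32 in size. Of these, 7 were higher and 6 lower, with a median log2 ratio of 0.05. The sum was 2243 FPKM with probucol and 2309 untreated. Eif3h was the most abundant, at 328 and 343 FPKM, followed by Eif3k, at 295 and 309 FPKM. Neither ratio differed from 1 by more than counting error, 0.957 (0.914 to 1.003) and 0.955 (0.892 to 1.02). Lower beyond counting error were Eif3f, Eif3i, Eif3g and Eif3e. Eif3f, a subunit known to bind mTOR, was at 124 and 152 FPKM and 1.22-fold lower (1.16 to 1.29). Eif3i, a WD-repeat subunit of the peripheral module, was at 197 and 228 FPKM and 1.16-fold lower (1.09 to 1.24). Its partner in that module Eif3g, an RNA-binding subunit, was at 248 and 281 FPKM and 1.13-fold lower (1.07 to 1.20), while Eif3e was at 202 and 216 FPKM and 1.07-fold lower (1.01 to 1.13). Higher beyond counting error were Eif3a, Eif3l, Eif3b, Eif3m and Eif3d. Eif3a, the largest subunit and a core of the complex, was at 55.97 and 47.9 FPKM and 1.17-fold higher (1.11 to 1.24). Its log2 ratio was 0.22, and 0.11 with the trend on transcript length removed. Eif3l was at 145 and 125 FPKM and 1.16-fold higher (1.10 to 1.23). Eif3b, which holds the i and g subunits, was at 110.4 and 103 FPKM and 1.07-fold higher (1.02 to 1.13). Eif3m was at 256 and 239 FPKM and 1.07-fold higher (1.01 to 1.14), and the cap-binding subunit gene Eif3d at 126 and 118 FPKM and 1.07-fold higher (1.005 to 1.14). The core subunit Eif3c was at 112 and 108 FPKM, at a ratio of 1.04 (0.988 to 1.09). The directions thus ran across modules: of the peripheral trio, Eif3b was higher and Eif3g and Eif3i lower.

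The loosely attached subunit eIF3j was read almost wholly from 1 of its 2 mouse genes. Eif3j2 was at 43.7 and 40.9 FPKM, at a ratio of 1.07 (0.974 to 1.17), while Eif3j1 was at 0.152 and 0.160 FPKM, so that Eif3j2 held 99.7% and 99.6% of the pair. In the annotation Eif3j2 has a single exon and 91.8% of its 50-base stretches also stand in transcripts of other genes, 90.8% in those of Eif3j1. Which of the copies the fragments came from cannot be told from these values. The pair summed to 43.9 and 41.05 FPKM.

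The cap-binding complex eIF4F and its helpers were balanced, with 5 of 10 genes higher and 5 lower, a median log2 ratio of 0.0093 and sums of 883 and 871 FPKM. Eif4e, which binds the cap, was at 75.8 FPKM in the probucol library and 77.4 FPKM in the untreated one, at a ratio of 0.980 (0.857 to 1.12). Eif4a1, the main helicase of the complex, was at 226 and 232 FPKM, at a ratio of 0.977 (0.932 to 1.02), so that the ratio of Eif4a1 to Eif4e was 2.98 with probucol and 2.99 untreated. Its paralog Eif4a2 was at 149 and 129.6 FPKM and 1.15-fold higher (1.09 to 1.22), and made up 39.8% with probucol and 35.9% untreated of the helicase pair. The scaffold genes were higher or within counting error of 1, and their ratios moved down when the trend of ratio on transcript length was removed: Eif4g1 was at 31.9 and 28.1 FPKM and 1.14-fold higher (1.06 to 1.22), and Eif4g3 at 14.7 and 14.1 FPKM, at a ratio of 1.04 (0.938 to 1.14). Eif4g2, a relative that lacks the cap-binding protein's site and serves cap-independent initiation, was at 131 and 118 FPKM and 1.11-fold higher (1.07 to 1.14). With the length trend removed, log2 ratios were 0.06 for Eif4g1, 0.01 for Eif4g2 and -0.08 for Eif4g3, against 0.18, 0.14 and 0.05 with the trend left in. Eif4g2 was the most abundant of the 3, with 73.8% with probucol and 73.7% untreated of their sum. The helicase cofactors Eif4h, at 127 and 139.9 FPKM, and Eif4b, at 51.7 and 56.2 FPKM, were 1.10-fold lower (1.05 to 1.16) and 1.09-fold lower (1.01 to 1.17). Among the cap-binding relatives, Eif4e2, linked to translational repression, was at 60.1 and 56.6 FPKM, at a ratio of 1.06 (0.968 to 1.16), and Eif4e3 at 15.6 and 19.2 FPKM and 1.23-fold lower (1.07 to 1.42). In the annotation 14.8% of the exonic bases of Eif4e3 overlap Gm20696 on the same strand. Eif4a3, a helicase of the exon junction complex that shares the name but not the place in eIF4F, was at 196 and 196 FPKM, at a ratio of 0.999 (0.945 to 1.06). Of its 50-base stretches 24.4% recur in other annotated transcripts, and 65.3% of those of Eif4a1, mostly in a pseudogene of the family.

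Proteins that take eIF4E away from the scaffold were the role group of 3 or more genes with the highest median log2 ratio, 0.20, with 3 of 4 genes higher. Eif4ebp1, the mTOR-regulated repressor, was at 31.3 FPKM in the probucol library and 32.7 FPKM in the untreated one, at a ratio of 0.957 (0.850 to 1.08). Eif4ebp2, a second repressor of the same kind, was at 25.3 and 19.8 FPKM and 1.28-fold higher (1.15 to 1.41). Its share of the summed repressors was 40.5% with probucol and 34.2% untreated, while that of Eif4ebp1 was 50.1% with probucol and 56.5% untreated. Eif4ebp3 was low, at 5.85 and 5.40 FPKM on 31 and 29 estimated fragments, at a ratio of 1.08 (0.626 to 1.85). That gene's exons overlap a readthrough gene on the same strand for 67.3% of their bases, and its value is uncertain. Eif4enif1, the transporter 4E-T that carries eIF4E to the nucleus and to processing bodies, was at 16.1 and 12.9 FPKM and 1.247-fold higher (1.10 to 1.42). Set against the repressors, the cap-binding gene gave a ratio of Eif4e to the summed Eif4ebp genes of 1.22 with probucol and 1.34 untreated.

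**Figure D3:**
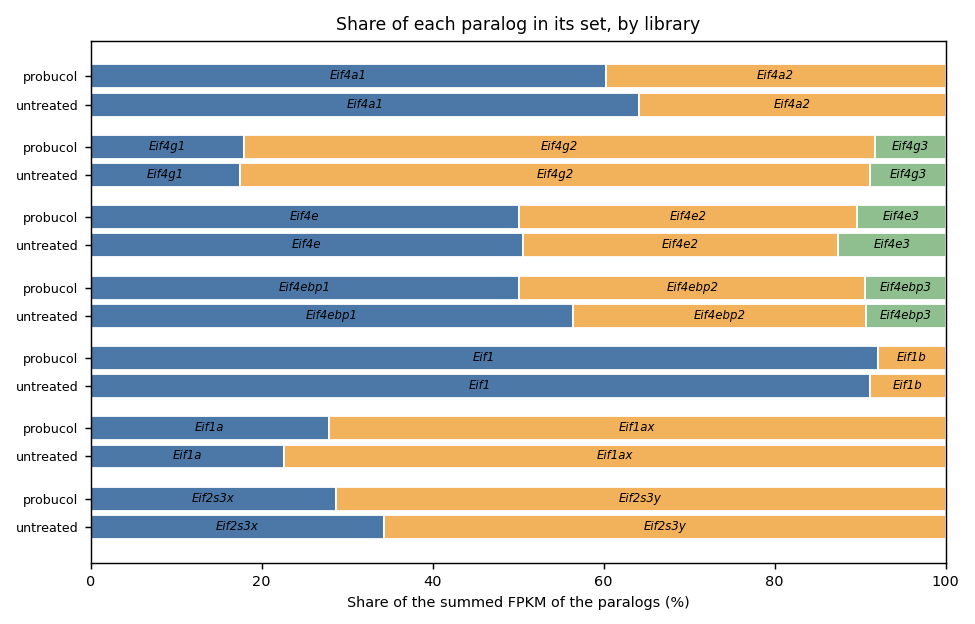
Share of each paralog in the summed FPKM of its set (percent, horizontal), 1 bar per library, with colours marking the order of the paralogs in each set. Eif4ebp2 took 40.5% of its set with probucol and 34.2% untreated, Eif1ax 72.2% and 77.4%, and the 3 Eif4g genes kept nearly the same shares.

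Factors of subunit joining and of the hypusine-bearing protein eIF5A split by level, with the abundant genes lower and the scarce ones higher. Eif5a, whose product carries the modified lysine hypusine and relieves stalled ribosomes, was at 694 FPKM in the probucol library and 742 FPKM in the untreated one and 1.07-fold lower (1.04 to 1.10). Its paralog Eif5a2 was at 2.24 and 1.59 FPKM and 1.41-fold higher (1.04 to 1.91), on 108 and 77 estimated fragments, and made up 0.322% and 0.213% of the pair. Eif6, which keeps the large subunit from joining too early, was at 121 and 142 FPKM and 1.17-fold lower (1.09 to 1.251). Eif5b (chromosome 1, 37998010 to 38055579), the GTPase that joins the ribosomal subunits, was at 12.1 and 8.68 FPKM and 1.39-fold higher (1.26 to 1.54), on 914 and 660 estimated fragments. Of the exonic bases of Eif5b, 15.9% overlap Rev1 on the opposite strand. The ratio of Eif5a to Eif5b was 57.5 with probucol and 85.5 untreated.

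Elongation factor genes held the most abundant member, Eef1a1. Of the 8 symbols that begin with Eef, 6 (75%) were lower with probucol, with a median log2 ratio of -0.13. Among all genes 47.3% were lower at a mean of 1 FPKM or more, and 65.3% at 100 FPKM or more. The 6 include Eef1b2, at a log2 ratio of -0.00053, Eef2k, whose interval spans 1, and the methyltransferase gene Eef2kmt. Eef1a1 (chromosome 9, 78478449 to 78489151), which delivers aminoacyl tRNA to the ribosome, was at 3725 FPKM in the probucol library and 4058 FPKM in the untreated one, the 19th highest mean level of all symbols. It was 1.09-fold lower with probucol (95% counting interval 1.08 to 1.10). Its paralog Eef1a2, typical of muscle and neurons, was listed at 0 in both libraries. Of the exchange factors that recharge eEF1A, Eef1g was at 447 and 489 FPKM and 1.09-fold lower (1.06 to 1.13), so that the ratio of Eef1a1 to Eef1g was 8.34 with probucol and 8.30 untreated. Eef1b2 was at 164 and 164 FPKM, at a ratio of 0.9996 (0.936 to 1.07), and Eef1d at 117 and 114 FPKM, at a ratio of 1.03 (0.957 to 1.10). Eef1e1, a scaffold protein of the aminoacyl tRNA synthetase complex rather than an elongation factor, was at 51.03 and 46.5 FPKM and 1.10-fold higher (1.01 to 1.19). Near-identical copies limit these values: 59.2% of the 50-base stretches of Eef1a1 recur in transcripts of 20 other annotated genes, and 64.3% of those of Eef1g in transcripts of 5.

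Eef2 (chromosome 10, 81176631 to 81182498), the translocase that moves the ribosome along the mRNA, was at 459 FPKM in the probucol library and 591 FPKM in the untreated one. It was 1.29-fold lower with probucol (95% counting interval 1.26 to 1.32), on 13179 and 17039 estimated fragments. Only 7.86% of its 50-base stretches stand in transcripts of other genes. The level of Eef1a1 was 8.12 times that of Eef2 with probucol and 6.87 times untreated. Eef2k, the kinase that switches eEF2 off, was at 1.65 and 2.39 FPKM on 47 and 68 estimated fragments, at a ratio of 0.690 (0.468 to 1.02), so that its lower level was within counting error. The methyltransferase gene Eef2kmt, which modifies a lysine of eEF2, was at 26.2 and 31.8 FPKM and 1.21-fold lower (1.08 to 1.37), with 21.8% of its exonic bases in overlap with Alg1 on the opposite strand. Eif1ad, a gene named for a domain it shares with eIF1A, was at 39.1 and 38.3 FPKM, at a ratio of 1.02 (0.930 to 1.12).

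**Figure D4:**
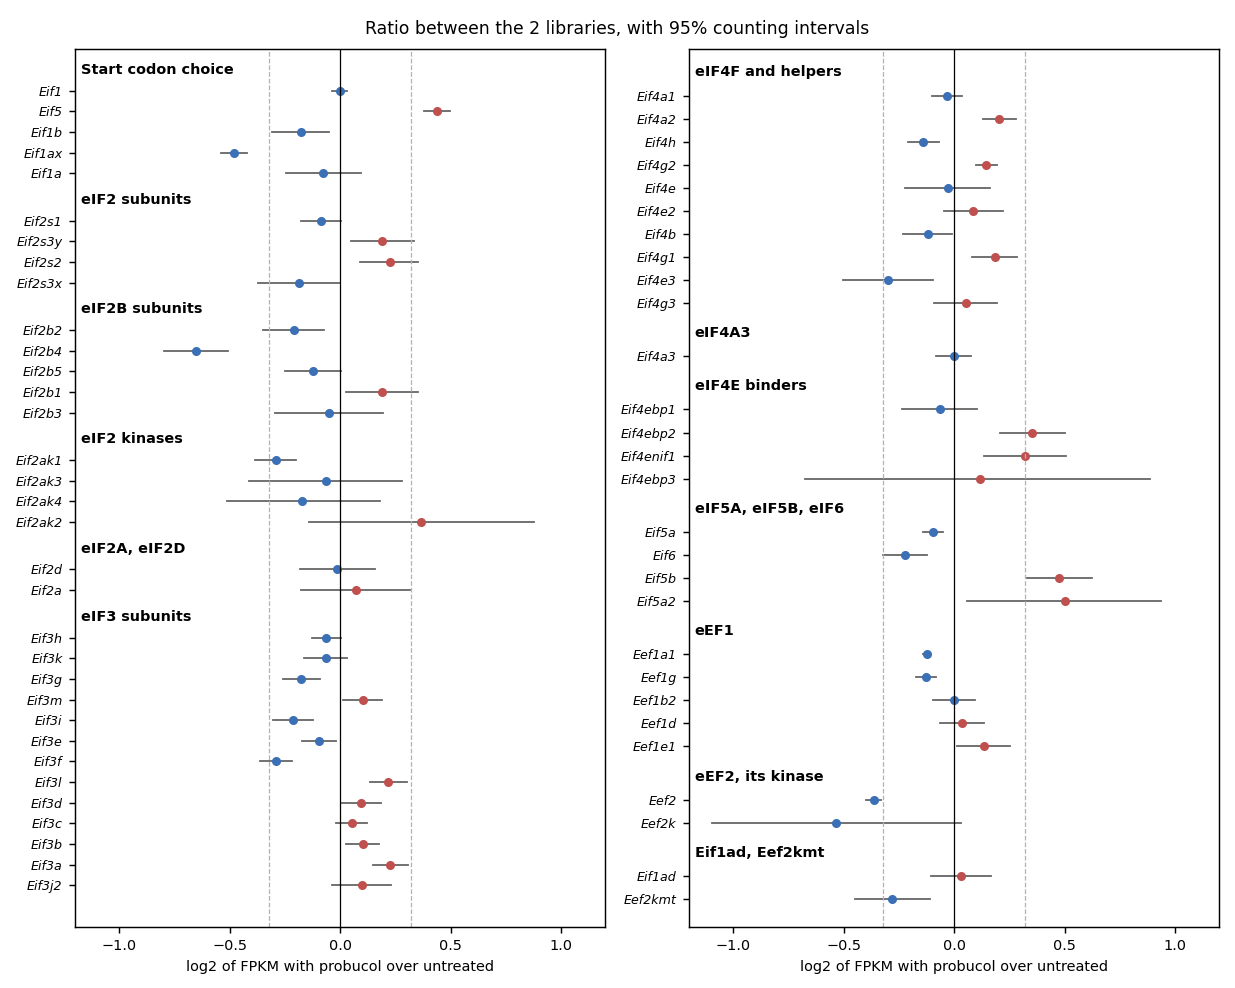
Log2 ratio of FPKM with probucol over untreated (horizontal) for the 61 genes by role, with bars for 95% counting intervals and dashed lines at 0.32 on either side of 0. Values are of plain FPKM without the added 1, so Eif2ak2 is drawn past a line that it does not reach in the counts above. Red points are higher and blue points lower with probucol. Each role group with 4 or more genes holds points on both sides of 0, and Eif2b4, Eif1ax, Eif5 and Eif5b lie farthest out among those with narrow bars.

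Genes that act on these factors were read from 5 lists. In the list of mTOR and factor kinases 10 of 12 were higher and 2 lower, with a median log2 ratio of 0.13 and 2 higher and 0 lower by at least 0.32. Mlst8, an mTOR partner, was the highest, at 12.2 and 8.46 FPKM, 1.44-fold higher (1.23 to 1.69), and Rps6kb1, the ribosomal S6 kinase, the other, at 15.6 and 12.2 FPKM, 1.29-fold higher (1.14 to 1.45). Mtor itself was at 3.05 and 2.74 FPKM, at a ratio of 1.11 (0.870 to 1.43). Of the kinases that phosphorylate eIF4E, Mknk1 was at 23.3 and 24.4 FPKM and Mknk2 at 81.5 and 79.3 FPKM, and both intervals span 1. In the list around eIF2 phosphorylation 5 of 7 were higher and 2 lower, with a median of 0.15 and 1 higher and 0 lower by at least 0.32. Ppp1r15b, which targets a phosphatase to eIF2, was the highest, at 19.3 and 15.05 FPKM, 1.28-fold higher (1.17 to 1.41). Its inducible relative Ppp1r15a was at 266 and 247 FPKM, 1.08-fold higher (1.04 to 1.12). Atf4, the transcription factor translated when eIF2 is phosphorylated, was at 81.5 and 73.3 FPKM, 1.11-fold higher (1.03 to 1.21), and the phosphatase subunit Ppp1ca was the lowest, at 768 and 821 FPKM.

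In the list of mRNA loop and scanning proteins 6 of 7 were higher and 1 lower, with a median of 0.09 and 3 higher and 0 lower by at least 0.32. Paip1, which links the poly(A)-binding protein to eIF4A, was at 3.96 and 2.54 FPKM, 1.56-fold higher (1.01 to 2.44), and the scanning helicase gene Dhx29 at 10.7 and 7.90 FPKM, 1.36-fold higher (1.18 to 1.57). Pabpc1, the poly(A)-binding protein gene, was at 93.2 and 87.6 FPKM, 1.06-fold higher (1.01 to 1.13). Pdcd4, whose product blocks eIF4A, was at 219 and 212 FPKM, at a ratio of 1.03 (0.991 to 1.07), and Paip2 was the lowest, at 226 and 241 FPKM, at a ratio of 0.936 (0.869 to 1.01). Of the release and recycling factors 7 of 8 were higher and 1 lower, with a median of 0.21 and 2 higher and 0 lower by at least 0.32, and Gspt2 did not pass the level threshold. Abce1, which splits ribosomes after termination, was at 47.1 and 37.2 FPKM, 1.26-fold higher (1.18 to 1.36). The highest and lowest log2 ratios were those of Mcts2, at 8.54 and 6.12 FPKM, and Denr, at 33.2 and 36.6 FPKM, both recycling factors, with intervals that span 1. In the list of enzymes that modify eIF5A and eEF2 5 of 8 were higher and 3 lower, with a median of 0.03 and 0 higher and 2 lower by at least 0.32. Dohh, the last enzyme of hypusine synthesis, was at 31.4 and 41.3 FPKM and 1.31-fold lower (1.13 to 1.53), while Dhps, the enzyme before it, was at 41.6 and 39.7 FPKM, at a ratio of 1.05 (0.917 to 1.19). Dph1, an enzyme of the diphthamide modification of eEF2, was the lowest, at 13.1 and 19.6 FPKM, 1.49-fold lower (1.27 to 1.75), and Dph3 the highest, at 20.7 and 17.5 FPKM, at a ratio of 1.18 (0.942 to 1.48). Beside these lists, 52.7% of all genes were higher and 47.3% lower, with a median of 0.02, and 17.8% were higher and 14.1% lower by at least 0.32. Among all genes with transcripts of 3000 bp or more 63.0% were higher, with a median of 0.10. Several listed genes are that long, such as Tsc1 (7678 bp), Dhx29 (4682 bp) and Abce1 (3793 bp), and others are short, such as Dohh (1195 bp). The part of length in the lists was not tested.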

How the data were processed

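The authors deposited an FPKM table for each library, per the file headers, with 1 library a group. The submitters' processing notes name TopHat2 2.1.1, Bowtie2, Cuffdiff 2.2.1 and mm10 but give none of them a role; annotation, filters and scaling are not given in those notes or elsewhere in the labels. Per the labels' protocols, SMART-Seq HT cDNA went into Nextera libraries, and the labels name neither strand nor molecular identifiers. Differences are log2 ratios of FPKM + 1 where the mean was at least 1 FPKM, and folds are plain FPKM ratios. One fragment was worth 0.100 FPKM at 1 kb in both libraries, with 210 bp subtracted from the length. That step was fitted on 462 low values with probucol and 952 untreated, of which 76.2% and 75.9% lay within 0.1 of a whole number. Fragments per gene used the median length of GENCODE M21 basic transcripts. Exact (Clopper-Pearson) 95% intervals come from these fragments and cover counting error only; PCR copies are included, and intervals are approximate. Exon overlaps and 50-base stretches shared with other genes were taken from GENCODE M21 (GRCm38). The scripts were tested on simulated data, with Python 3.11.15, SciPy 1.17.1 and statsmodels 0.14.6.

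The members and gene lists were chosen with earlier results of these data known. All 61 members are accounted for. Members of role groups were named with both values, and from each further list the highest and lowest ratio and genes with a set role. Trac, Trbc1 and Trbc2 found no match and were not analysed here. Alternatives were pseudocounts of 0.1 and 5, no filter or a mean FPKM of 5 or more, equal sums, centring on the median gene, removal of the trend on transcript length, and means in place of medians.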

Additional observations from a re-analysis of the deposited data

How the results depend on the processing

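No member passed 2-fold in either direction under any of the 7 alternatives that recount members. Counted at a log2 ratio of 0.32, the 4 lower members stayed within 1.5 times that count in all of them, while the 4 higher ones became 1 with pseudocount 5, 2 after centring on the median gene and 1 with the length trend removed. The median log2 ratio of the members, -0.03, ran from -0.05 after centring to -0.0059 with equal sums, and their mean was -0.02. The split of 26 higher and 35 lower members became 30 and 31 with equal sums and also with the length trend removed. Eef1b2, Eif1 and Eif4a3 changed sign under both, Eif2d with equal sums only, and Eif3k, Eif4e and Eif4g3 with the length trend removed only. Their values before the change lay within 0.07 of 0, and Eif4e was at 0.07 and Eif4g3 at -0.08 with the trend removed. With the trend removed, the log2 ratio of Eif5b was 0.24, that of Eif3a 0.11, that of Eif4g1 0.06 and that of Eif4g2 0.01, while Eif1ax was at -0.59 and Eef2 at -0.40. Ranks among members depended on the pseudocount: at 0.1, Eif5a2 (0.47) and Eif5b (0.47) stood above Eif5 (0.44), and Eef2k (-0.51) below Eif1ax (-0.48). The median of the group of Eif5a, Eif5a2, Eif5b and Eif6 was -0.10 at a mean of 5 FPKM or more, since Eif5a2 drops out. No pseudogene symbol with these stems is among the 24346, so the alternative that adds them to the paralog sums could not be run. No paired analysis was possible because each group has 1 library. Depth limits Eif2ak2, Eif2ak3, Eif2ak4, Eif5a2, Eef2k and Eif4ebp3, and Eif5a2 is among the 4 members counted as higher.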

Other observations

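Transcript length went with the direction of the ratios, in the members as in all genes. Of the 12 members with transcripts under 1500 bp, 2 were higher with probucol and 10 lower, and of the 17 of 3000 bp or more, 11 were higher and 6 lower. Over all genes 38.3% of 2434 under 1500 bp were higher, 51.6% of 3982 between 1500 and 3000 bp, and 63.0% of 3853 of 3000 bp or more. Spearman's rho between length and log2 ratio was 0.21 across all 10269 genes with a length and 0.24 across the 61 members, given as a description across genes of the same libraries. Eif5b, Eif5a2 and Eif4ebp2, with median transcript lengths of 7797, 5027 and 3603 bp, were among the long and higher members. Eif1ax, at 5172 bp, was long and lower. The part of length in these ratios was not tested beyond the removal of its trend.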
